A study of Arabidopsis thaliana with 24 samples.

Results

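The genes described here are 139 probe sets whose transcripts in Arabidopsis thaliana leaves were close to their starting level 1 h after a spray with the herbicide 2,4-D and at least 4-fold lower at 72 h, in the wild type and in the acx1-2 line alike. They were 139 of 22746 probe sets, or 0.611%. They were chosen by group means of log2 expression values. In each genotype the 72 h mean had to lie at least 2 below the 0 h mean and the 1 h mean within 0.5 of it. These contrasts selected the members, so the 1 h and 72 h changes of members against 0 h are given as a description, with no test. Where a member is said to have changed by a value, that value is the difference of its group means, with the standard error of the fit.

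Leaves were profiled on 24 Affymetrix ATH1 arrays, on which several short probes per transcript form a probe set, to follow the response to 2,4-D (2,4-dichlorophenoxyacetic acid), a synthetic auxin. The wild type (WT) was Col-0, and acx1-2 (ACX here) is a SALK insertion line in the same background, called transgenic in the labels, with a lesion in an acyl-CoA oxidase gene of peroxisomal fatty acid breakdown. The spray was 23 mM 2,4-D in 1% dimethyl sulfoxide and 1% ethanol. Each genotype was read on 6 arrays at 0 h and on 3 arrays at either later time, 1 h and 72 h, with leaves from 5 or more plants pooled in every replicate. Solvent-sprayed plants were sampled at 1 and 72 h. The labels do not say whether the 0 h arrays are these controls, so herbicide, solvent, spraying and leaf age cannot be told apart. ACX is a single insertion line, and the annotation used here names no probe set for its disrupted gene, so the genotype was not checked at the transcript. All-probe-set medians lay between 5.95 and 6.17 on the 24 arrays, with the 72 h arrays above all others. Of 36 leaf cell type markers, 8 had a named probe set. The mesophyll marker RCA was between 14.12 and 14.46 on the log2 scale on all arrays, near the top of the scale. In whole leaves, fewer cells of a type and less RNA per cell cannot be told apart.

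Most chloroplast proteins are encoded in the nucleus and imported, while a small plastid genome encodes part of the photosystems and part of the plastid ribosome, a ribosome of bacterial type built from subunits of both genomes. Light-harvesting proteins, enzymes of chlorophyll synthesis, peroxide-removing enzymes of the stroma and thylakoid, and the glycine decarboxylase of leaf mitochondria serve the photosynthetic leaf. Defensins and lipid transfer proteins are small secreted cysteine-rich peptides.

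Of the 139 members, 58 were paired with 1 gene, 9 of them with a symbol and 49 with a locus code alone. A further 80 members (57.6%, against 38.4% of all probe sets) are not listed in the annotation used here and 1 matches several genes, so these 81 carry no name below. The annotation gives no products for locus codes, and what they encode is stated as background knowledge. Role groups were formed after names and values were seen, and no test was made on them.

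At 0 h the probe sets of the members gave high signals. Their median log2 value was 11.32 in WT and 11.11 in ACX, where the median over all probe sets was 6.015 and 6.004, and 132 of 139 were among the top 25% of signals in either genotype. The rule itself favours high 0 h signals, because a drop of at least 2 needs room above the low end of the scale. At 72 h their median was 8.33 in WT and 8.21 in ACX, still above the median signal. Signals of different probe sets also depend on their probes, so they are not read here as amounts of transcript.

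Array by array, the median of the 139 members was between 11.25 and 11.35 on the 6 WT arrays at 0 h and between 11.03 and 11.22 on the 6 ACX arrays. At 1 h it was 10.92, 10.93 and 11.19 in WT and 11.11, 10.81 and 10.82 in ACX. At 72 h it was 8.28, 8.40 and 8.22 in WT and 8.16, 8.41 and 8.08 in ACX. The 3 WT arrays at 1 h lay below all WT arrays at 0 h, whereas ACX replicate 1 at 1 h lay within the ACX range at 0 h. For each of the 139 members, all 6 arrays at 72 h lay below all 18 others. A drop of at least 2 in the means favours this separation, which was not counted over all probe sets, so it is no separate evidence.

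**Figure D1:**
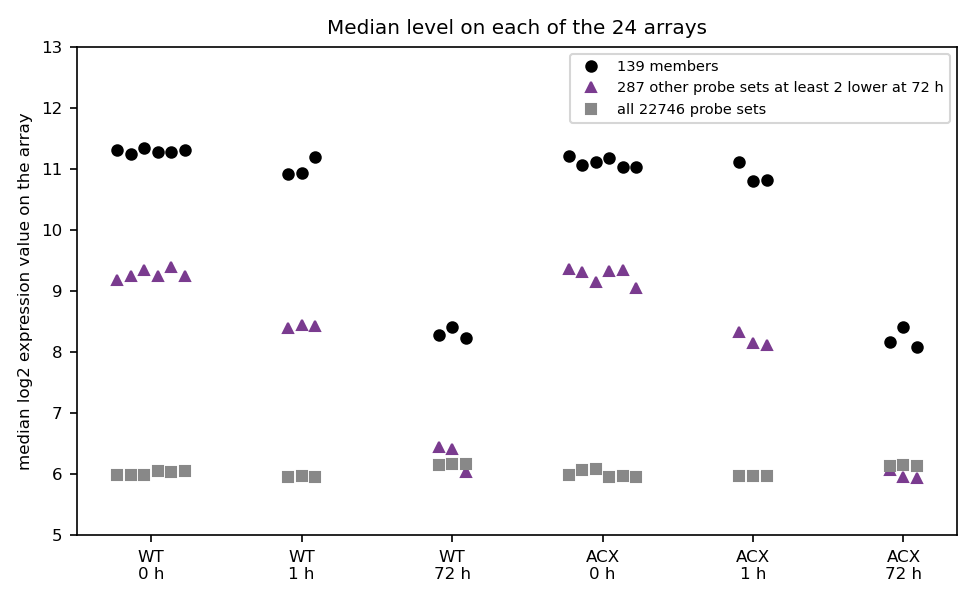
Median log2 expression value on each of the 24 arrays (vertical axis) by genotype and time (horizontal axis), for the 139 members (circles), for 287 other probe sets at least 2 lower at 72 h in both genotypes (triangles) and for all 22746 probe sets (squares). Members sit near 11 at 0 h and 1 h and near 8 at 72 h. The median of all probe sets is between 5.945 and 6.075 at 0 h and 1 h and between 6.129 and 6.171 at 72 h.

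The 72 h change of members ran from -6.36 to -2.01 in WT (median -2.67) and from -6.81 to -2.01 in ACX (median -2.52), against medians of -0.06 over all probe sets in both. Only 6 members were lower by at least 4 in both genotypes and 22 by at least 3, and 43 were lower by no more than 2.5 in both. In all, 426 probe sets met the 72 h condition in both genotypes, and 139 of them (32.6%) met the 1 h condition as well. Of the other 287, 188 were at least 0.5 lower at 1 h in both genotypes and 82 in 1 genotype only. The median 0 h signal of these 287 was 9.23 in WT and 9.27 in ACX.

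Members just inside the limits were AT1G73110 with a 72 h change of -2.04 in WT, AT1G50575 with -2.01 in ACX, and AT5G02160 with 0.48 at 1 h in ACX. Just outside were AT5G48220 with -1.98 at 72 h in WT, the glycerate kinase gene AT1G80380 with -1.98 in ACX, and AT1G74730 with -0.51 at 1 h in ACX. When each array was left out in turn, 88 members met the rule every time and 51 missed it at least once.

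**Figure D2:**
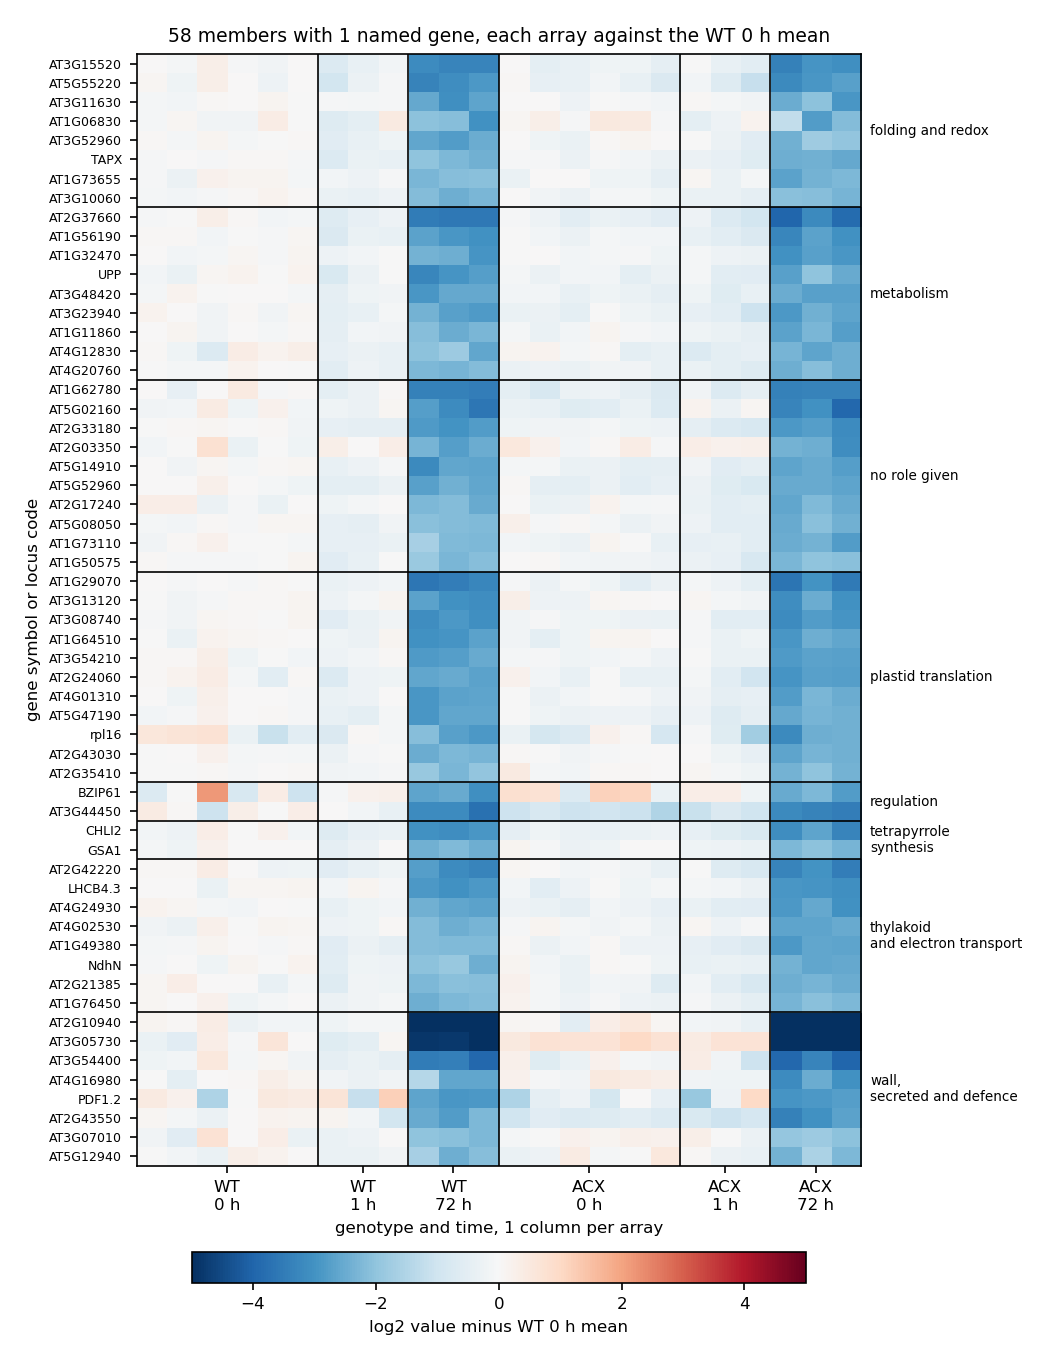
Log2 value of the 58 members with 1 named gene (rows, by role group) on each array (columns) minus the WT 0 h mean of that gene, in blue where lower and red where higher, with colours ending at 5. The 72 h columns are blue in every row, and PDF1.2, BZIP61 and rpl16 show spread among arrays of 1 group at 0 h or 1 h.

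Genes of wall, secreted and defence proteins were 8 members, with a median 72 h change of -2.67 in WT and -2.72 in ACX. Among the named members, 2 of these 8, AT2G10940 and AT3G05730, had the largest 72 h changes in both genotypes. AT2G10940, of the lipid transfer protein family, had a lowest, median and highest value of 11.91, 12.16 and 12.57 at 0 h in WT and 11.69, 12.29 and 12.74 in ACX. At 1 h it was at 11.99, 12.09 and 12.09 in WT and 12.05, 12.02 and 11.82 in ACX, and at 72 h at 6.55, 6.67 and 5.05 in WT and 5.80, 5.63 and 5.05 in ACX. No 72 h array came within 5 log2 units of the 0 h arrays of its genotype, and the means were 69.1-fold lower in WT and 112-fold lower in ACX. AT3G05730, which encodes a defensin-like peptide, ranged from 10.10 to 11.28 at 0 h in WT and from 11.17 to 11.65 in ACX. It was at 5.80, 5.83 and 5.19 at 72 h in WT and at 5.32, 4.74 and 4.59 in ACX. Its change was -5.07 ± 0.22 (SE) in WT and -6.50 ± 0.22 in ACX.

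The aspartyl protease gene AT3G54400 was lower by nearly the same amount in both genotypes, -3.62 ± 0.24 (SE) in each. AT4G16980, of the arabinogalactan protein family, changed by -2.20 ± 0.22 in WT and -3.08 ± 0.22 in ACX. A second probe set of AT4G16980 differed by -0.58 in WT and -1.18 in ACX and is not a member, so the 2 probe sets of this gene disagreed in size. The pectate lyase gene AT3G07010, whose family cleaves pectin, and the leucine-rich repeat gene AT5G12940 lay near the limit, between -2.12 and -2.05 in both genotypes.

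PDF1.2, a plant defensin induced by jasmonate, was a member with low and scattered values. It had a lowest, median and highest value of 5.45, 7.30 and 7.49 at 0 h in WT, and of 5.46, 6.55 and 7.01 in ACX. At 1 h it was at 7.63, 5.84 and 8.16 in WT and at 5.07, 6.72 and 7.98 in ACX. At 72 h all arrays lay between 4.05 and 4.35. The arrays at 1 h therefore spanned more than the 0.5 that the rule allows the mean, and the membership of PDF1.2 rests on an average of scattered values. A further defensin-like gene, AT2G43550, was tighter, between 9.89 and 10.36 at 0 h in WT and at 7.65, 7.38 and 7.93 at 72 h.

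The role group with most members was translation in the plastid, with 11 genes. Of these, 7 are nuclear genes for plastid ribosomal proteins and rpl16 is a ribosomal protein gene of the plastid genome itself. The other 3 are AT3G08740, encoding a factor of the elongation factor P type, AT2G24060, encoding an initiation factor, and AT2G35410, encoding an RNA-binding protein. The 11 changed by -3.45 to -2.06 at 72 h in WT and by -3.14 to -2.18 in ACX, and by -0.40 to -0.03 at 1 h. Their 0 h means in WT were between 10.17 and 12.49.

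AT1G29070, the gene of plastid ribosomal protein L34, had a lowest, median and highest value of 12.42, 12.47 and 12.51 at 0 h in WT and 11.95, 12.21 and 12.41 in ACX. At 1 h it was at 12.14, 12.21 and 12.35 in WT and at 12.39, 12.22 and 11.98 in ACX. At 72 h it was at 8.861, 9.002 and 9.192 in WT and at 8.81, 9.48 and 8.95 in ACX. The 72 h arrays were all well below the others, and the change was -3.45 ± 0.12 (SE) in WT and -3.14 ± 0.12 in ACX. The genes of ribosomal proteins S10 (AT3G13120), S6 (AT1G64510), L17 (AT3G54210), L5 (AT4G01310) and L19 (AT5G47190) changed by -2.93, -2.88, -2.71, -2.73 and -2.71 in WT. In ACX the same genes changed by -2.86, -2.56, -2.60, -2.39 and -2.18. AT2G43030, encoding L3, changed by -2.35 in WT and -2.42 in ACX.

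The plastid-encoded member rpl16 was less uniform. Its WT values at 0 h were 12.33, 12.42 and 12.51 in replicates 1 to 3 and 11.46, 10.67 and 11.27 in replicates 4 to 6, so these arrays did not overlap within 1 group. The 72 h values were 9.66, 9.07 and 8.90 in WT and 8.62, 9.33 and 9.38 in ACX. Against 0 h replicates 4 to 6 alone its WT change was -1.92, short of the limit, and against replicates 1 to 3 it was -3.21. Of 69 plastid-encoded probe sets with 1 gene, rpl16 was the only member. Among the 15 for ribosomal proteins, 1 was lower by at least 2 in both genotypes and 8 were within 0.5 at 1 h in both. Short of the 72 h limit, rps15, rpl20, rpl22 and rps16 changed by -1.88, -1.93, -1.87 and -1.87 at 72 h in WT. Their ACX changes at 72 h were -1.23, -1.33, -1.45 and -1.54. They missed the 1 h limit as well, with WT changes of -0.58, -0.56, -0.73 and -0.78 at 1 h. Smaller WT changes at 72 h, -0.31 and -0.35, were seen in rpl32 and rpl33, and the low-signal rps14 differed by 0.28.

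**Figure D3:**
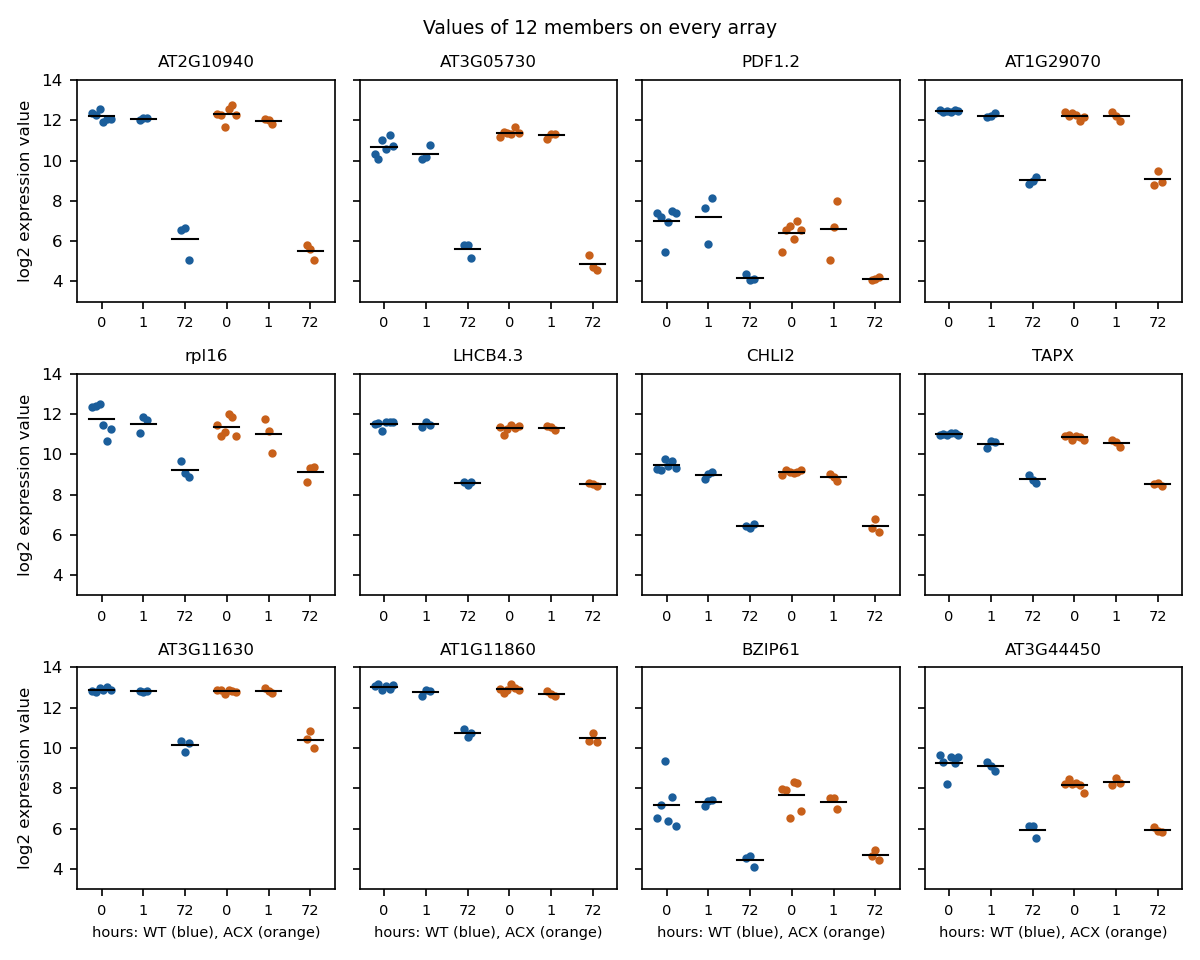
Log2 expression value (vertical axis) of 12 members on every array, in WT (blue) and ACX (orange) at 0, 1 and 72 h (horizontal axis), with a black bar at each group mean. All 72 h points lie below all other points of the same gene, while the scatter at 0 h is wide for BZIP61, PDF1.2 and rpl16 and narrow for AT3G11630 and TAPX.

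Thylakoid and electron transport genes made up 8 members. LHCB4.3, a minor antenna protein of photosystem II, had a lowest, median and highest value of 11.15, 11.56 and 11.62 at 0 h in WT and 10.98, 11.33 and 11.47 in ACX. At 1 h it was at 11.38, 11.62 and 11.45 in WT and at 11.39, 11.35 and 11.19 in ACX, within or at the edge of the 0 h ranges. Its 72 h values were 8.63, 8.49 and 8.64 in WT and 8.58, 8.55 and 8.44 in ACX. The changes were -2.91 ± 0.10 (SE) and -2.77 ± 0.10.

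The other 2 genes of the LHCB4 family were not members. They passed the test as lower at 72 h by much less: LHCB4.1 by -0.88 ± 0.09 (SE) in WT and -1.10 ± 0.09 in ACX, and LHCB4.2 by -0.54 ± 0.09 and -0.78 ± 0.09 (limma, adjusted p at most 4.63e-05). Their levels at 72 h were between 12.67 and 13.06. LHCB4.3 was thus the family member with the largest measured change of the 3. The rule chose it for a drop of at least 2, and probe sets of one family may share sequence.

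The remaining thylakoid genes were close in size. AT2G42220, encoding a rhodanese domain protein, changed by -3.08 ± 0.17 (SE) in WT and -3.15 ± 0.17 in ACX. NdhN, a subunit of the NADH dehydrogenase-like complex that carries cyclic electron flow, changed by -2.12 ± 0.12 and -2.42 ± 0.12. AT1G49380, whose product attaches haem to plastid cytochromes, changed by -2.19 ± 0.10 and -2.57 ± 0.10. AT2G21385, needed to assemble the plastid ATP synthase, the lumen protein genes AT4G24930 and AT4G02530 and the PsbP domain gene AT1G76450 lay between -2.55 and -2.08 in both genotypes.

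Tetrapyrrole synthesis was represented by 2 members. CHLI2, a subunit of the magnesium chelatase that starts the chlorophyll branch, had a lowest, median and highest value of 9.21, 9.38 and 9.79 at 0 h in WT and 8.998, 9.123 and 9.245 in ACX. It was at 8.79, 9.04 and 9.12 at 1 h in WT and at 9.03, 8.85 and 8.70 in ACX. By 72 h it stood at 6.44, 6.35 and 6.53 in WT and at 6.35, 6.80 and 6.16 in ACX. All WT arrays at 1 h lay below all WT arrays at 0 h, by a mean of 0.47 that is just inside the limit. GSA1, the aminotransferase that makes the tetrapyrrole precursor 5-aminolevulinate, changed by -2.35 ± 0.11 (SE) in WT and -2.14 ± 0.11 in ACX.

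Protein folding and redox genes contributed 8 members. AT3G11630, a 2-Cys peroxiredoxin of the stroma that reduces peroxides, stayed between 12.66 and 13.05 on the 18 arrays at 0 and 1 h. It was at 10.35, 9.83 and 10.25 at 72 h in WT and at 10.43, 10.83 and 9.98 in ACX. Its mean 1 h change was -0.08 in WT and 0.01 in ACX, and its 72 h change -2.76 ± 0.13 (SE) and -2.42 ± 0.13. TAPX, the ascorbate peroxidase of the thylakoid, was at 8.98, 8.74 and 8.57 at 72 h in WT and at 8.53, 8.59 and 8.42 in ACX, from 0 h medians of 10.98 and 10.89. At 1 h TAPX was already 0.47 below 0 h by the WT mean and 0.28 below by the ACX mean.

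The largest change of this group was in AT3G15520, a cyclophilin of the lumen, at -3.25 ± 0.14 (SE) in WT and -2.83 ± 0.14 in ACX. AT5G55220, encoding a trigger factor type chaperone, changed by -3.11 and -2.62. The peroxiredoxin gene AT3G52960, the FKBP type isomerase genes AT1G73655 and AT3G10060 and the glutaredoxin gene AT1G06830 lay between -2.61 and -2.01. In this group 6 of 8 members were lower by more in WT than in ACX, by differences of at most 0.61.

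Metabolic enzymes contributed 9 members. The T and H proteins of glycine decarboxylase, which releases photorespiratory carbon dioxide in mitochondria, are encoded by AT1G11860 and AT1G32470. AT1G11860 ranged from 12.87 to 13.18 at 0 h in WT and was at 10.93, 10.57 and 10.74 at 72 h. AT1G32470 ranged from 12.46 to 12.71 and was at 10.23, 10.15 and 9.65. The ACX changes were -2.46 ± 0.11 (SE) and -2.79 ± 0.10, against -2.29 ± 0.11 and -2.57 ± 0.10 in WT.

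AT2G37660, of the Rossmann fold proteins, had the largest change of the metabolic group, -3.55 ± 0.16 (SE) in WT and -3.31 ± 0.16 in ACX. AT1G56190, a phosphoglycerate kinase, changed by -2.87 and -2.85. UPP, which salvages uracil, changed by -2.99 ± 0.17 in WT and -2.17 ± 0.17 in ACX, with a genotype difference of 0.81 that was the largest of the group. AT3G23940, a dihydroxyacid dehydratase of branched-chain amino acid synthesis, changed by -2.64 and -2.37. AT4G20760, a further Rossmann fold gene, changed by -2.25 and -2.05 on the member probe set and by -1.91 and -1.60 on a second one that missed the limit.

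Regulatory genes were 2 of the 58. BZIP61, a bZIP transcription factor, was at 6.51, 7.17, 9.37, 6.39, 7.58 and 6.15 at 0 h in WT, so replicate 3 stood far above the rest. It had a lowest, median and highest value of 6.51, 7.96 and 8.33 at 0 h in ACX. At 72 h it was at 4.57, 4.66 and 4.12 in WT and at 4.67, 4.94 and 4.42 in ACX, below all earlier arrays. AT3G44450 encodes an inhibitor of cryptochromes, the blue light receptors. It had a lowest, median and highest value of 8.20, 9.43 and 9.65 at 0 h in WT and of 7.76, 8.21 and 8.46 in ACX, and at 72 h all 6 arrays were between 5.51 and 6.12.

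The 10 named genes without a role given here changed by -3.41 to -2.04 in WT and by -2.95 to -2.01 in ACX, led in WT by AT1G62780. The 81 unnamed probe sets ran from -6.36 to -2.01 in WT and from -5.91 to -2.01 in ACX. The largest change among them was in 251155_at, at 5.66, 5.68 and 5.17 at 72 h in WT from a 0 h mean of 11.86, or 82.2-fold lower. Probe set 259161_at had a 0 h mean of 13.89 in WT and 13.98 in ACX. The 58 placed loci lay on all 5 nuclear chromosomes and the plastid genome, and 0 pairs lay within 10 genes of each other.

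**Figure D4:**
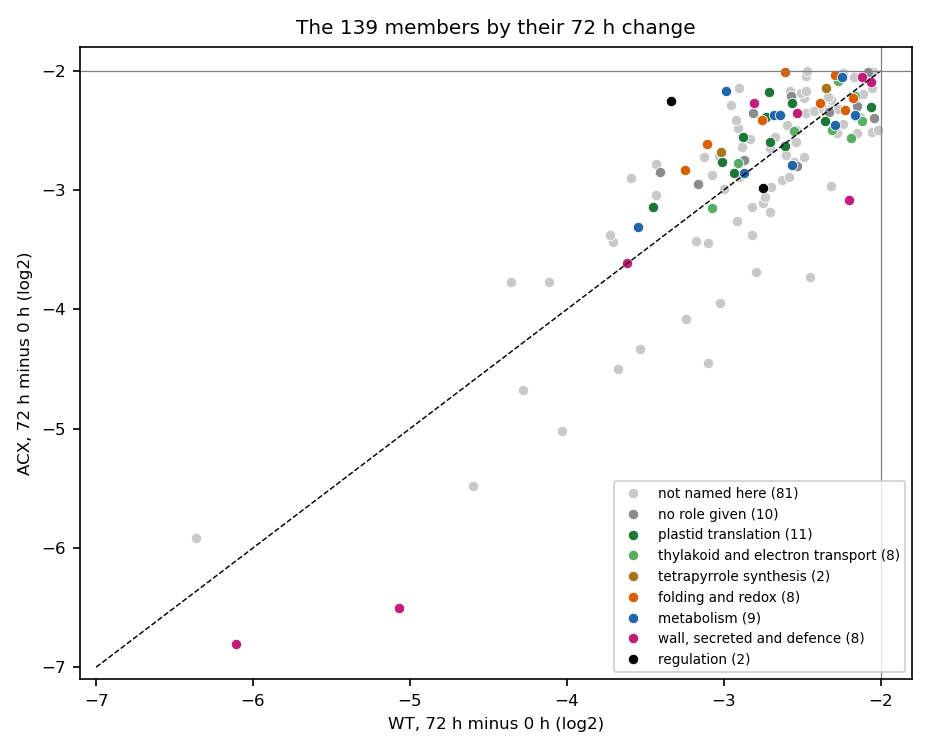
Change from 0 h to 72 h in WT (horizontal axis, log2) and in ACX (vertical axis, log2) for the 139 members, coloured by role group, with the number of each group in the legend. Grey lines mark the limit of -2 and the dashed line equal change. Secreted and unnamed members reach beyond -5, and plastid genes lie between -3.5 and -2.

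The genotypes share no arrays, so a choice made in one could be read in the other. The rule applied to WT alone chose 233 probe sets, of which 233 (100%) passed the test as lower at 72 h in ACX, against 27% of all probe sets (limma, Benjamini-Hochberg adjustment at 0.05). Their median 72 h change in ACX was -2.48, 187 were lower by at least 2, and 177 were within 0.5 at 1 h. The rule applied to ACX alone chose 257, of which 246 (95.7%) passed as lower in WT, against 27% of all probe sets. Their median change in WT was -2.46, and 182 were lower by at least 2. Over all alternatives the counts were 232 to 233 and 238 to 251. The chosen probe sets were those of the main fit in every alternative, so the choice itself was not varied. The first count could not exceed 233.

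The 11 probe sets chosen in ACX that missed the test in WT included CYP71B22, a cytochrome P450, with -2.03 in ACX and -0.13 in WT (limma, adjusted p in WT = 0.787). AT4G21870 changed by -3.10 in ACX and -0.75 in WT (limma, adjusted p in WT = 0.142). Their ACX levels at 0 h were 7.74 and 9.64, against 6.17 and 7.67 in WT, while their levels at 72 h were 5.71 and 6.54 in ACX and 6.04 and 6.93 in WT.

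The same reading was made at 1 h, a comparison added after the data were seen. Of the 233 chosen in WT, 57 (24.5%) passed as lower and 4 as higher at 1 h in ACX, against 12.7% and 10.9% of all probe sets. Of the 257 chosen in ACX, 80 (31.1%) passed as lower and 24 as higher at 1 h in WT, against 15.6% and 11% of all. The median 1 h change of the chosen probe sets in the other genotype was -0.23 in ACX and -0.24 in WT. These counts rest on few arrays. The first became 36 without ACX 1 h replicate 2 and 33 without replicate 3, and the second became 32 without WT 1 h replicate 1 and 52 without replicate 2. Shares over all probe sets without these arrays are not given here, so the excess over them cannot be judged. Among the members themselves, 112 of 139 (80.6%) had 1 h means below 0 h in both genotypes, against 38.7% of the 16807 probe sets within 0.5 at 1 h in both. The rule used these 1 h changes, and they share their 0 h means with the 72 h changes that chose the members. A choice of large drops from 0 h favours 1 h means below 0 h, so this share is a description only.

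A minority of members passed the test between the genotypes at 0 h and at 72 h. The rule did not make this comparison, although it used the same group means. At 0 h, 13 members passed the test as lower in ACX (9.35%, against 3.89% of all probe sets) and 1 as higher (against 3.46%). Their median ACX minus WT difference was -0.147, against -0.008 over all probe sets. At 1 h, 0 members passed (limma), against 0.0132% of all probe sets lower and 0.022% higher, and 9 members (6.47%) had an unadjusted p under 0.05, against 4.58% of all probe sets. At 72 h, 13 passed as lower in ACX (9.35%, against 1.23% of all) and 0 as higher (against 1.56%). Only 1 probe set, which is unnamed, passed at both 0 and 72 h. At 0 h, 44 members (31.65%) had an unadjusted p under 0.05 (limma), against 20.33% of all probe sets. At 72 h these were 40 members (28.78%), against 13.46% of all.

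AT3G44450, the cryptochrome inhibitor gene, had the largest difference at 0 h, -1.07 ± 0.19 (SE; limma, adjusted p = 0.00146). WT replicate 3, at 8.20, lay within the ACX range and the other 5 WT arrays lay above all 6 ACX arrays. At 72 h the genotypes differed by 0.02 ± 0.27. Its change from 0 h was -3.34 in WT and -2.25 in ACX, a difference of 1.09 ± 0.33 that is not tested because both arms chose the members.

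AT3G05730, the defensin-like gene, was the member that was higher in ACX at 0 h, by 0.71 ± 0.18 (SE; limma, adjusted p = 0.0172), with 1 WT array inside the ACX range. At 72 h it was lower in ACX by a difference of -0.72 ± 0.25, which missed the threshold (limma, adjusted p = 0.152). The other defensin-like gene AT2G43550 was lower in ACX at 0 h, at -0.69 ± 0.15 (limma, adjusted p = 0.00672), and its 2 groups of 6 arrays did not overlap. AT1G62780 was lower by -0.50 ± 0.12 (limma, adjusted p = 0.0157).

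AT4G24930, AT4G20760 and AT5G52960 differed by -0.31, -0.28 and -0.35 at 0 h (limma, adjusted p between 0.0259 and 0.035). Each missed the threshold when some single 0 h arrays were left out. The 0 h count of 14 became 6 with 0 h replicates 1 to 3 alone and 9 without ACX 0 h replicate 6. With replicates 1 to 3 alone, AT3G44450, AT2G43550 and AT1G62780 also missed it, and with replicates 4 to 6 alone AT3G05730 did. Shares over all probe sets in these settings are not given here. A loss of calls particular to the members therefore cannot be told from a general one.

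At 72 h the named gene with a genotype difference was AT1G49380 of plastid cytochrome assembly. It was at 7.35, 7.33 and 7.33 in WT and at 6.66, 6.93 and 6.87 in ACX, so the groups did not overlap, and the difference was -0.52 ± 0.11 (SE; limma, adjusted p = 0.0126). This call was lost without WT 72 h replicate 1, without ACX 72 h replicate 1 and with only the compared groups fitted (limma, adjusted p = 0.0638, 0.0691 and 0.0821). The other 12 are unnamed, and 4 of the 13 differed at least 2-fold. Probe set 259161_at, for example, was at 11.45, 11.30 and 9.63 in WT and at 9.61, 9.86 and 9.12 in ACX, with WT replicate 3 inside the ACX range. The 72 h count rested on single arrays: it became 2 without WT 72 h replicate 1, 7 without WT replicate 2, 21 without WT replicate 3 and 3 without ACX replicate 3. With only the compared groups fitted it was 0 in limma. Just 2 of all probe sets passed in that fit, against 280 lower and 355 higher in ACX in the main fit. The loss of calls was therefore not particular to the members. In the same fit 29 members (20.9%) had an unadjusted p under 0.05, against 16.9% of all probe sets. For the counts with 1 array left out, shares over all probe sets are not given here.

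Across all members, 79 were lower by more in WT and 60 by more in ACX. The 2 changes differed by under 0.5 in 113 members and by at least 1 in 4, among them AT3G05730 (-1.43 ± 0.31, SE) and AT3G44450. A negative value means a larger drop in ACX.

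**Figure D5:**
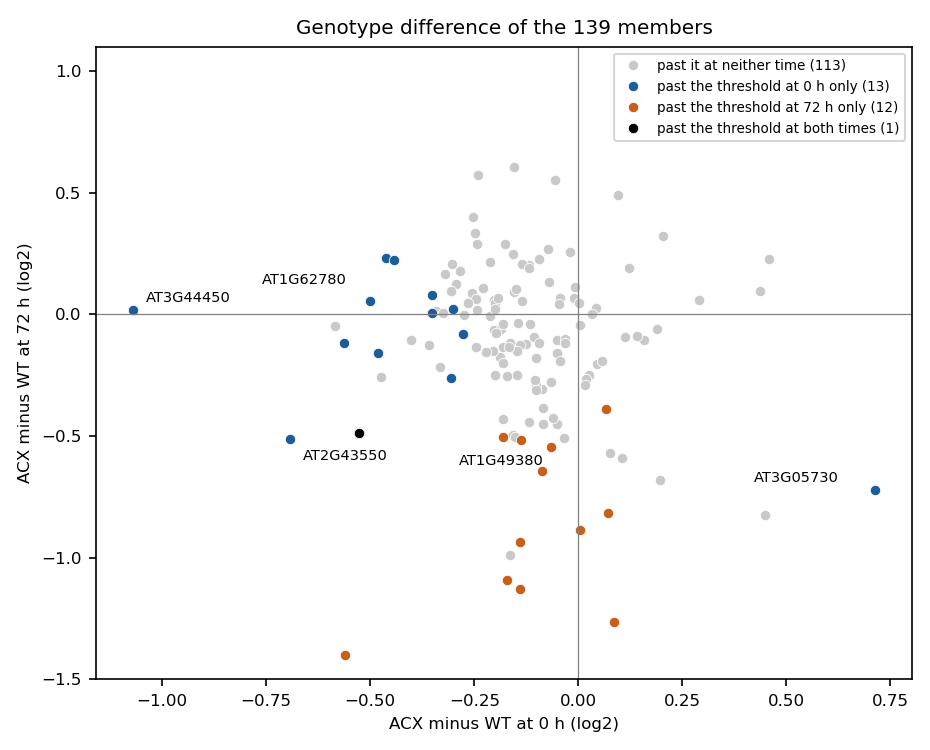
ACX minus WT difference of the 139 members at 0 h (horizontal axis, log2) and at 72 h (vertical axis, log2), coloured by the time at which the difference passed an adjusted p of 0.05. The 13 members past it only at 0 h include AT3G44450 at the far left and AT3G05730 at the far right, and the 12 past it only at 72 h all lie below 0 on the vertical axis.

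Lists of leaf genes written for this comparison held 324 genes in 22 lists, of which 61 had a named probe set and 6 were members. The lists were written with earlier results of these data known, so their counts are a description and no independent evidence. Of the 55 that are not members, 42 passed as lower at 72 h in WT and 6 as higher (limma), with a median change of -0.81, against 27% lower and 26.4% higher over all probe sets. In ACX 39 passed as lower and 5 as higher, with a median of -0.88, against 27% and 26.3%. The members of a list are left out of its counts below.

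All 5 measured genes of the photosystems and electron transport passed as lower in both genotypes, and none is a member. PSBY, of photosystem II, changed by -1.03 ± 0.10 (SE) in WT and -1.40 ± 0.10 in ACX, and ATPC1, the gamma subunit of the plastid ATP synthase, by -0.67 ± 0.08 and -0.92 ± 0.08. Of 5 genes of carbon fixation and photorespiration beside the member AT1G11860, 4 passed as lower in both. SBPASE, of the Calvin cycle, changed by -1.28 ± 0.08 in WT and -1.67 ± 0.08 in ACX, while RCA, which activates Rubisco, differed by 0.04 ± 0.06 and 0.05 ± 0.06 and did not pass.

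Beside the member GSA1, all 3 measured genes of chlorophyll and carotenoid synthesis passed as lower at 72 h in both genotypes. CHLM, a methyltransferase of the chlorophyll branch, changed by -2.14 ± 0.13 (SE) in WT and -2.49 ± 0.13 in ACX at 72 h. It was also lower at 1 h, by -0.55 and -0.63 (limma, adjusted p at most 0.00311), which kept it outside the members, unlike GSA1. Of 4 plastid redox genes beside 2 members, 3 passed as lower in WT and 4 in ACX. SAPX, the stromal counterpart of TAPX, changed by -1.31 ± 0.12 in WT and -0.98 ± 0.12 in ACX, less than the -2.23 and -2.33 of TAPX. MSRB6, a methionine sulfoxide reductase, changed by -4.0 ± 0.26 and -4.94 ± 0.26.

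Both measured genes of antimicrobial peptides beside PDF1.2 passed as lower at 72 h in both genotypes. THI2.2, a thionin, changed by -3.40 ± 0.25 (SE) in WT and -4.71 ± 0.25 in ACX, and was lower at 1 h as well, by -0.97 and -1.61 (limma, adjusted p at most 0.00617). THI2.1 lay between 4.18 and 4.80 at 0 and 72 h, near the low end of the scale. Outside plastid and defence genes, 3 of 3 genes of wall synthesis passed as lower in both genotypes, and CSLA03, a mannan synthase gene, changed by -3.33 ± 0.24 in WT and -3.76 ± 0.24 in ACX. Of 8 wall loosening genes, 6 passed as lower and 2 as higher in WT, and 5 and 1 in ACX. Of 8 cytoskeleton genes, 7 passed as lower in WT and 5 in ACX. None of these genes is a member. Lists of aquaporins, nitrogen assimilation, auxin transport, plastid gene expression, vascular and epidermal genes had 0 named probe sets.

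Other cell type markers moved at the same time. The summed linear level of the 4 stomatal lineage markers with a probe set was 892 to 1247 at 0 h in WT and 145 to 291 at 72 h, and 587 to 1315 and 133 to 138 in ACX. The drop of this sum mostly follows STOMAGEN, whose median at 0 h in WT was 9.79, against 6.85 for FAMA. SPCH and MUTE, at 4.78 and 4.42, lay near the low end of the scale. STOMAGEN, listed with the lineage although this peptide is made in mesophyll, changed by -3.71 ± 0.33 (SE) in WT and -4.70 ± 0.33 in ACX. The lineage regulators SPCH, MUTE and FAMA changed by -0.54, -0.22 and -0.40 in WT and by -0.36, -0.21 and -0.88 in ACX, and MUTE did not pass the test in either. The trichome gene TRY changed by -2.85 ± 0.35 (SE) in WT and -2.55 ± 0.35 in ACX. SAG29, a sugar transporter gene of senescing leaves and the only one of 7 senescence markers with a probe set, rose by 2.84 ± 0.39 and 4.77 ± 0.39 (limma, adjusted p at most 1.94e-06). The phloem gene SWEET11 rose by 0.82 ± 0.16 in WT and was lower by a change of -0.93 ± 0.16 in ACX. Guard cell, epidermis and xylem markers had 0 named probe sets. The part of these cell types in the members' values was not tested.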

How the data were processed

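The values deposited by the authors are log2 expression values, 1 per probe set. Per the submitters' processing notes RMA and limma were used, with no versions stated. RMA as usually run makes the array distributions alike, which would mask a shift of most genes at once. Of 22810 probe sets, 64 Affymetrix controls were left out and 22746 tested. Values were not rescaled and low ones were not filtered. Samples were grouped by their titles. limma 3.58.1 in R 4.3.3 estimated a mean for each of the 6 groups from all 24 arrays, with 18 residual and 3.23 prior degrees of freedom. P-values are two-sided, with Benjamini-Hochberg adjustment over all 22746 probe sets. The procedure was tested on simulated data. Errors are standard errors from this fit, and the number of arrays limits the precision. Typical errors were 0.128 for 72 h against 0 h and 0.148 between genotypes at 72 h.

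The members and lists were chosen with earlier results of these data known. Genes were named by rule: members with a symbol, members on a list, members with the smallest adjusted p between genotypes, those nearest a limit, those with the highest 0 h level and those with the largest genotype difference. Others are named only as part of their role group and were chosen after values were seen. Where a listed gene had several probe sets, that with the highest mean stood for it. Gene names come from the platform annotation. Alternatives were centring, quantile normalization, a replicate block, subsets of 0 h arrays, filters on low values, other priors and weights, other limits, and leaving out each array. Same-numbered WT and ACX arrays of a time mostly did not deviate together, with correlations from -0.509 to 0.222, so the numbers were not taken as pairs. At 72 h, replicates 1 and 3 did correlate most with their own number, at 0.12 and 0.222. Pairing across times was not checked. Promoter sequences were not analysed here.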

Additional observations from a re-analysis of the deposited data

Results flagged for a closer look

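Among 48 groups of 6 arrays at 0 h (23 members chosen by the rule for named genes, and the median over all members, in each genotype), 4 held 1 array far from the other 5, by a gap to its neighbour larger than Dixon's critical share of the group's range for 6 values. Chance alone flags about 1 group in 20. LHCB4.3 was at 11.15 in WT replicate 3, with the others between 11.52 and 11.62. PDF1.2 was at 5.453 in the same array, with the others between 6.964 and 7.488. AT3G44450 was at 8.203 in that array too, with the others between 9.24 and 9.654. AT2G43550 was at 9.169 in ACX replicate 1, with the others between 9.48 and 9.648. In 3 of the 4 cases the array was WT 0 h replicate 3 and the value was low. On that array BZIP61 stood high, at 9.369, without passing the same limit.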

How the results depend on the processing

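The 139 members became 277 with a 72 h limit of 1.5 and 65 with 2.5, and 53 with a 1 h limit of 0.25 and 214 with 0.75. Other settings gave 128 to 189, the highest on arrays centred on their medians, and leaving out 1 array gave 125 to 153. Centring lowered 72 h changes of all probe sets by about 0.155 in WT and 0.137 in ACX. With the replicate block, counts were 128 members, 13 and 11 genotype differences at 0 and 72 h, and 232 and 247 lower at 72 h in the other genotype. Block counts at 1 h in the other genotype were 50 and 66, and no count moved by over 1.5 times.

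The 0 h genotype count of 14 became 6 with 0 h replicates 1 to 3 only and 9 to 19 with 1 array left out. The 72 h count of 13 became 5 with 0 h replicates 1 to 3 only and 22 with array weights. With 1 array left out it was 2 to 21. It became 0 with only the groups compared fitted, where just 2 of all probe sets passed. In that fit 29 members (20.9%) had an unadjusted p under 0.05, against 16.9% of all probe sets. The count of 57 lower at 1 h in ACX became 99 with array weights and 33 to 72 with 1 array left out, and that of 80 in WT became 50 with 0 h replicates 1 to 3 only and 32 to 84. For the other settings in this paragraph, shares over all probe sets are not given here. The cause of these shifts was not tested. Of the named genes' values, 31 settings lost a genotype call and 10 moved a 72 h change by more than the replicate SD, all with centring or quantile normalization, and 0 reversed a direction.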
